A study of Homo sapiens with 6 samples.

Results

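The 10 genes described here encode fibronectin (FN1), the matricellular proteins SPARC, THBS1 and TNC, the SPARC-related proteins SPOCK1 and FSTL1, the adhesion protein TGFBI, the microfibril protein FBN1 and the crosslinking enzymes LOX and LOXL2. They were picked by gene name, with earlier results of these data known. All 10 were found among the 58302 genes of the deposited table, and all 10 passed the filter on low counts that left 15945 tested genes. RNA was sequenced from PC-3, a human prostate cancer cell line established from a bone metastasis, with 3 libraries per group. One group carried a lentivirus for overexpression of BHLHE22 (a transcription factor of the basic helix-loop-helix class), the other an empty-vector lentivirus. No source used here gives the promoter of the construct, or says whether the cells were selected, cloned or cultured separately. The p-values therefore reflect the spread among 3 libraries, part or all of which may be technical.

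Libraries held between 12186723 and 15949537 counts. BHLHE22 itself had 1 count in each vector library and 98, 92 and 133 in the BHLHE22 libraries, a ratio of 104 after scaling with an exact 95% interval of 35.4 to 509, which covers counting error only. All 5 genes that had been listed for an epithelial cell line were present: KRT8, KRT18, KRT19, EPCAM, and VIM, which is not particular to epithelial cells. Their summed level was 1856 to 2025 CPM (counts scaled to a common library total) in the vector and 2301 to 2395 CPM in the BHLHE22 libraries. EPCAM (1.17 on the log2 scale) and VIM (0.56) were called higher, KRT8 (-0.32) and KRT18 (-0.38) lower, and KRT19 was not called; KRT8 and KRT18 lost their calls with unscaled library sizes (-0.17 and -0.23) and without vector replicate 1 or BHLHE22 replicate 2, KRT8 also without BHLHE22 replicate 3, and KRT18 also with the replicate block and without vector replicate 2 or BHLHE22 replicate 1. KLK3, a secretory gene of the prostate lumen, had 0 counts in every library. The 5 luminal markers, of which 1 rose, 1 fell and 3 were too low to test, summed to 143 to 186 CPM in the vector and 63.4 to 75.4 CPM in the BHLHE22 libraries. Among 10 fibroblast markers, FAP had 0 counts, THY1 had 2 and DCN had 5 over the 6 libraries, and LUM had 18 in the vector and 85 in the BHLHE22 libraries. The summed level of those 10 markers was 418 to 440 CPM in the vector and 383 to 402 CPM in the BHLHE22 libraries, carried mostly by COL6A3 and COL1A1. Of its 5 tested genes LUM (2.16) was called higher and COL1A1 (-0.47) and COL3A1 (-3.04) lower. Of 6 blood cell markers, TYROBP, CD3E and HBB had 0 counts in every library, and CD14 fell by 2.33 on the log2 scale (edgeR adjusted p = 0.00082). Those 6 summed to 2.12 to 3.26 CPM in the vector and 0.55 to 0.96 CPM in the BHLHE22 libraries. Of 6 endothelial markers, summing to 97.2 to 105.5 and 64.6 to 76.5 CPM, PECAM1 fell by 1.27 (edgeR adjusted p = 0.0006) and KDR was not called. CDH5 and VWF had 2 and 6 counts over the 6 libraries. The part of these markers in the results on the 10 genes was not tested.

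Fibronectin is a large secreted glycoprotein that cells assemble into fibrils through integrins, and it forms an early scaffold on which collagen and fibrillin are laid down. Matricellular proteins sit in that matrix without building it: they bind matrix fibres, growth factors and cell surface receptors and alter how firmly cells adhere. SPARC, also called osteonectin, is abundant in bone, the main site to which prostate cancer spreads, and lysyl oxidases such as LOX and LOXL2 crosslink collagen and elastin outside the cell.

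The promoters of the 5 genes with the clearest differences are shown because BHLHE22 belongs to a family of factors that bind the E-box, CANNTG. The sequences are the 250 bases before the gene start in RefSeq (GRCh38.p14), 5′ to 3′ on the gene's strand, with every E-box in capitals. RefSeq entries were matched for 8 of the 10 genes, and none for SPOCK1 and LOXL2. The RefSeq starts differ from the ends of some gene spans given below. The SPARC and FSTL1 windows lie wholly inside those spans, and the FN1 and TNC windows partly.
SPARC, chr5:151686916-151687165, minus strand: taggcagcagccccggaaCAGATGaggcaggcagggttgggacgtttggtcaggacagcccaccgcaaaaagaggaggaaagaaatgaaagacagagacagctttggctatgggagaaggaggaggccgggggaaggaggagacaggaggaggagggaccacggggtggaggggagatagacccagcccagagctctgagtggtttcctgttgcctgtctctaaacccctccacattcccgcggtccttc
FN1, chr2:215436069-215436318, minus strand: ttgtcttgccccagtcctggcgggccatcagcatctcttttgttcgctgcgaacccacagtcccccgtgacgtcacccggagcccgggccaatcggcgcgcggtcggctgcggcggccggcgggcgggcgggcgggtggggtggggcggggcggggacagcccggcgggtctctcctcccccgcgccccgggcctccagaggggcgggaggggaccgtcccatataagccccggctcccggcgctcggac
THBS1, chr15:39580829-39581078, plus strand: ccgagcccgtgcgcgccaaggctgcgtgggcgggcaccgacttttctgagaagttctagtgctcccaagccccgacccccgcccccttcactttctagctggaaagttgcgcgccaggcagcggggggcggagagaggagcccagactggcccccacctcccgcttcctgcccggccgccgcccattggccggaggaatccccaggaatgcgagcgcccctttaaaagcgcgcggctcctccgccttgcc
TNC, chr9:115118158-115118407, minus strand: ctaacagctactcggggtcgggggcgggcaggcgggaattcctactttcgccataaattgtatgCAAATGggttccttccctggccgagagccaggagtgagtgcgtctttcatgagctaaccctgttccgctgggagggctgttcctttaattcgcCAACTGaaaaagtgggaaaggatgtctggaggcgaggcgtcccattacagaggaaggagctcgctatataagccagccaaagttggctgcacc
FSTL1, chr3:120450993-120451242, minus strand: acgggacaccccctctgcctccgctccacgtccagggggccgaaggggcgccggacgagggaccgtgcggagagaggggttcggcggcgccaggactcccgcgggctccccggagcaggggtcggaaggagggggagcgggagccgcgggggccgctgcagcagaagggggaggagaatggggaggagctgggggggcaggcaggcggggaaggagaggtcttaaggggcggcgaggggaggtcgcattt

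SPARC, which fell, had 1 E-box (CAGATG), 232 bases before the start, and TNC, which rose, had 2 (CAAATG at 186 and CAACTG at 93 bases). FN1, THBS1 and FSTL1 had 0 in this window. Of 34943 such windows in the RefSeq table, 61.8% held at least 1 E-box, against 2 of these 5, 1 of a gene that fell and 1 of a gene that rose. FN1 held the cyclic AMP response element TGACGTCA 183 bases before the start, a match found in 1.63% of all windows. The AP-1 motif TGANTCA (6.59% of windows) and the exact letters TATAAA (10.8%) were in 0 of the 5 windows. Other spellings of the TATA motif were not searched, such as TATATAAG near the end of the TNC window and ATATAAG near that of FN1. CCAAT (32.0%) was in the window of FN1 and, on the other strand, in that of THBS1. Both strands were searched, and none of these matches overlapped another. A match here describes letters and is not evidence of binding.

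The 10 genes moved in both directions. FN1 and SPARC fell in BHLHE22 cells, THBS1, TNC, FSTL1, SPOCK1 and TGFBI rose, and FBN1, LOX and LOXL2 did not pass the test. In all, 7 of the 10 were called by the quasi-likelihood test of edgeR at a Benjamini-Hochberg adjusted p under 0.05, against a background of 49.4% of all tested genes. Rises were 5 of 10 against a background of 25.1%, and falls 2 of 10 against 24.3%. The median log2 fold change of the 10 was 0.58 (range -3.37 to 1.96), and that of all tested genes was 0.00. For the 7 called genes the 2 groups did not overlap in CPM, which held for 60.5% of all tested genes.

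**Figure D1:**
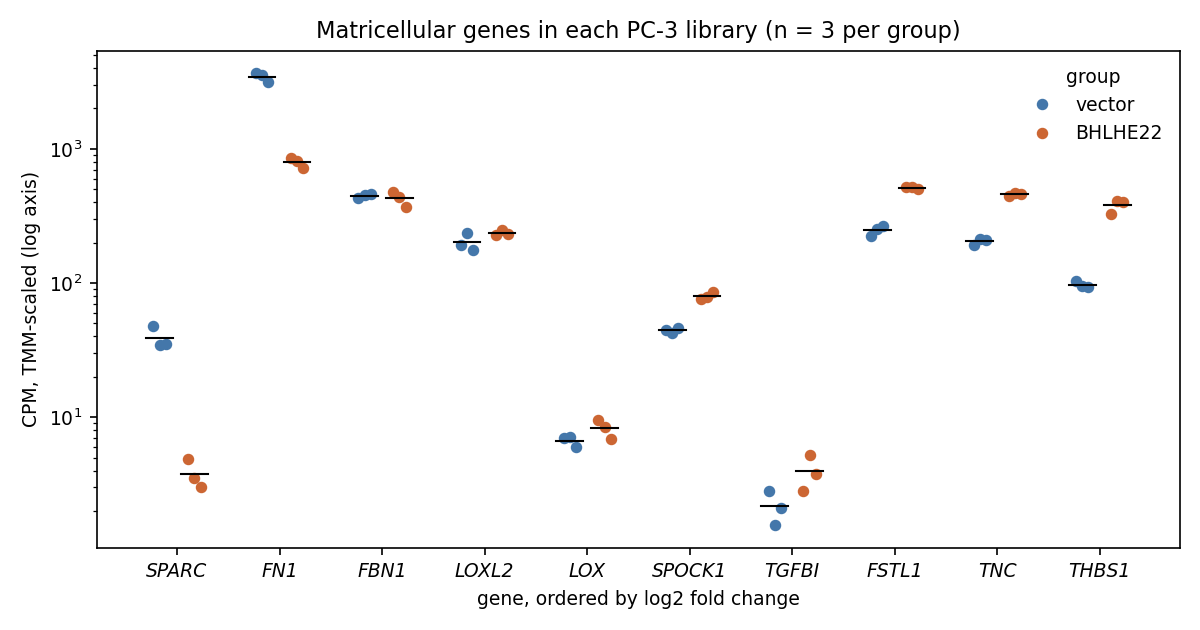
CPM (log axis) of the 10 genes in each library, ordered by log2 fold change; points are libraries (blue, vector; orange, BHLHE22; 3 each) and black bars are group means. The groups lie apart for SPARC and FN1, which are lower in BHLHE22 cells, and for SPOCK1, FSTL1, TNC and THBS1, which are higher; those of TGFBI nearly touch at 2.80 and 2.81 CPM, and those of FBN1, LOXL2 and LOX overlap.

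FN1 (ENSG00000115414, chromosome 2, 215360440 to 215436172, GRCh38), the fibronectin gene, was the most abundant of the 10 in vector cells, with 3656, 3536 and 3149 CPM in replicates 1 to 3. The BHLHE22 libraries had 861, 806 and 716 CPM. Every BHLHE22 library was below every vector library, and the gap was far wider than the spread within either group. The mean CPM was 3447 ± 265 in vector cells and 794 ± 73 in BHLHE22 cells (SD, n = 3 per group), so FN1 was 4.34-fold lower. On the log2 scale the change was -2.12 with a standard error (SE) of 0.10, and edgeR gave an adjusted p of 1.84e-05. In bulk RNA, fewer expressing cells and less RNA per cell cannot be told apart, here and for the genes below. Of 15945 tested genes, 253 had a lower log2 fold change. FN1 alone took 0.306% to 0.348% of all counts in the vector and 0.0755% to 0.0905% in the BHLHE22 libraries.

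SPARC (ENSG00000113140, chromosome 5, 151661096 to 151687165) had the largest change of the 10. Its protein binds collagen and calcium and weakens cell adhesion. The vector libraries held 47.4, 34.5 and 35.1 CPM and the BHLHE22 libraries 4.84, 3.52 and 3.0 CPM. The highest BHLHE22 library was thus far below the lowest vector library. Means of 39.0 ± 7.3 and 3.78 ± 0.95 CPM put it 10.4-fold lower, at -3.37 on the log2 scale (SE 0.22; edgeR adjusted p = 6.30e-05). Only 60 tested genes had a lower log2 fold change. These levels rest on 498 to 627 counts per vector library and 49 to 62 per BHLHE22 library. COL3A1, a collagen gene on the fibroblast marker list, fell as well, from 7.64 ± 2.87 to 0.92 ± 0.02 CPM. The other genes of that list were mixed. COL1A1 (-0.47 on the log2 scale) was called lower and LUM (2.16) higher, while COL6A3 (-0.07) and PDGFRA (0.16) were not called. FAP, THY1 and DCN were at or near 0 in both groups. The part of these markers in the fall of SPARC was not tested.

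THBS1 (ENSG00000137801, chromosome 15, 39581079 to 39599466) encodes thrombospondin-1, which can release TGF-beta from its latent form and inhibits the growth of blood vessels. The vector libraries had 104, 94.3 and 93.5 CPM and the BHLHE22 libraries 328, 406 and 404. Replicate 1 was the lowest of the BHLHE22 libraries and still above every vector library. Mean levels of 97.3 ± 5.8 and 379 ± 44 CPM made a 3.9-fold rise, 1.96 on the log2 scale (SE 0.11; edgeR adjusted p = 3.35e-05). A higher log2 fold change was found for 233 tested genes.

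TNC (ENSG00000041982, chromosome 9, 115019578 to 115118257) encodes tenascin-C, a protein that binds fibronectin and interferes with adhesion to it. It had 193, 211 and 208 CPM in the vector libraries and 445, 466 and 464 in the BHLHE22 libraries. Within each group the libraries lay close together, and no value of one group reached the other. The means of 204 ± 10 and 458 ± 12 CPM differed 2.25-fold, a rise of 1.17 on the log2 scale (SE 0.07; edgeR adjusted p = 5.85e-05).

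**Figure D2:**
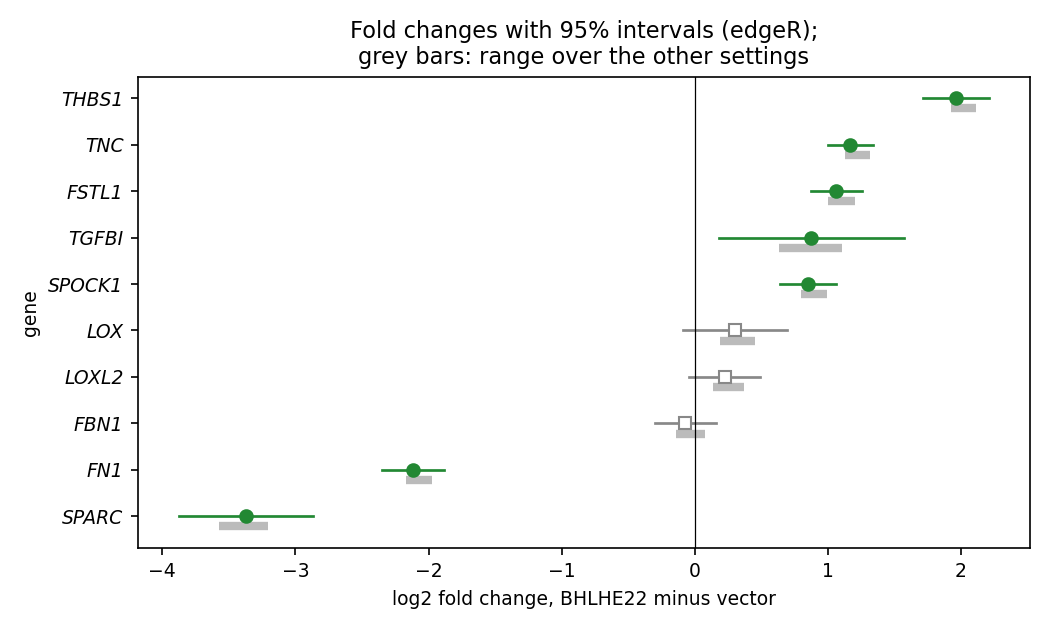
Log2 fold changes (BHLHE22 minus vector) of the 10 genes with 95% intervals from edgeR; filled green circles passed an adjusted p of 0.05 and open grey squares did not, and grey bars give the range over the 13 other settings. The bars of SPARC (-3.57 to -3.20) and FN1 (-2.17 to -1.97) stay far below 0 and that of THBS1 (1.92 to 2.11) far above it, while that of FBN1 (-0.14 to 0.08) spans 0.

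FSTL1 (ENSG00000163430, chromosome 3, 120392293 to 120451253) encodes a secreted glycoprotein that shares the follistatin-like and calcium-binding parts of SPARC. Its values were 224, 251 and 265 CPM in the vector and 520.3, 519 and 505 in the BHLHE22 libraries. All 3 BHLHE22 libraries were well above the vector libraries. FSTL1 averaged 247 ± 20 and 515 ± 9 CPM and rose 2.09-fold, or by 1.06 on the log2 scale (SE 0.08; edgeR adjusted p = 0.000134). SPARC and FSTL1, related in protein architecture, thus moved in opposite directions.

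SPOCK1 (ENSG00000152377, chromosome 5, 136975298 to 137598379) encodes testican-1, a proteoglycan of the SPARC family. It had 44.3, 42.3 and 46.5 CPM in the vector libraries and 75.6, 78.2 and 86.2 in the BHLHE22 libraries. All 3 BHLHE22 libraries exceeded all 3 vector libraries, with means of 80.0 ± 5.5 against 44.4 ± 2.1 CPM. SPOCK1 thus rose 1.8-fold, or by 0.85 on the log2 scale (SE 0.09; edgeR adjusted p = 0.000380).

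TGFBI (ENSG00000120708, chromosome 5, 136028895 to 136063818), a TGF-beta-induced gene whose protein binds integrins and collagen, was the least expressed of the 10 in vector cells. In BHLHE22 cells its mean of 3.94 CPM was close to the 3.78 CPM of SPARC. The vector libraries held 37, 23 and 30 counts, or 2.80, 1.56 and 2.11 CPM, and the BHLHE22 libraries 36, 73 and 63 counts, or 2.81, 5.24 and 3.78 CPM. The highest vector and the lowest BHLHE22 library were nearly equal. The log2 fold change was 0.87 (SE 0.30) with an edgeR adjusted p of 0.0419, and the call ended under 6 of 13 other settings. Without vector replicate 2 or 3 the adjusted p was 0.121 or 0.0928, and without BHLHE22 replicate 2 or 3 it was 0.140 or 0.0785.

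FBN1 (ENSG00000166147, chromosome 15, 48408306 to 48645849) encodes fibrillin-1, the backbone of microfibrils that hold latent TGF-beta complexes. It had 433, 454 and 459 CPM in the vector libraries and 474, 438 and 370 in the BHLHE22 libraries, so both the highest and the lowest values were in BHLHE22 cells. The log2 fold change was -0.07 with a 95% interval of -0.30 to 0.16 (edgeR adjusted p = 0.591), and its sign turned to 0.08 with unscaled library sizes and to 0.03 without BHLHE22 replicate 3. The gene had 5726 to 6669 counts per library.

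Neither crosslinking enzyme passed the test. LOX (ENSG00000113083, chromosome 5, 122063195 to 122078360) had 6.96, 7.14 and 5.99 CPM in the vector and 9.60, 8.39 and 6.84 in the BHLHE22 libraries, with replicate 3 of the BHLHE22 group inside the vector range. Its log2 fold change was 0.30 with a 95% interval of -0.09 to 0.69 (edgeR adjusted p = 0.171). LOXL2 (ENSG00000134013, chromosome 8, 23297189 to 23425328) had 194, 237 and 175 CPM in the vector and 228, 247 and 232 in the BHLHE22 libraries. Vector replicate 2 lay among the BHLHE22 values. The log2 fold change of LOXL2 was 0.22 with an interval of -0.04 to 0.49 (edgeR adjusted p = 0.145). The gene passed without vector replicate 2 (0.36, adjusted p = 0.0169) and with unscaled library sizes (0.37, adjusted p = 0.0173). These intervals leave room for a rise of up to 0.69 for LOX and 0.49 for LOXL2, and for almost none.

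**Figure D3:**
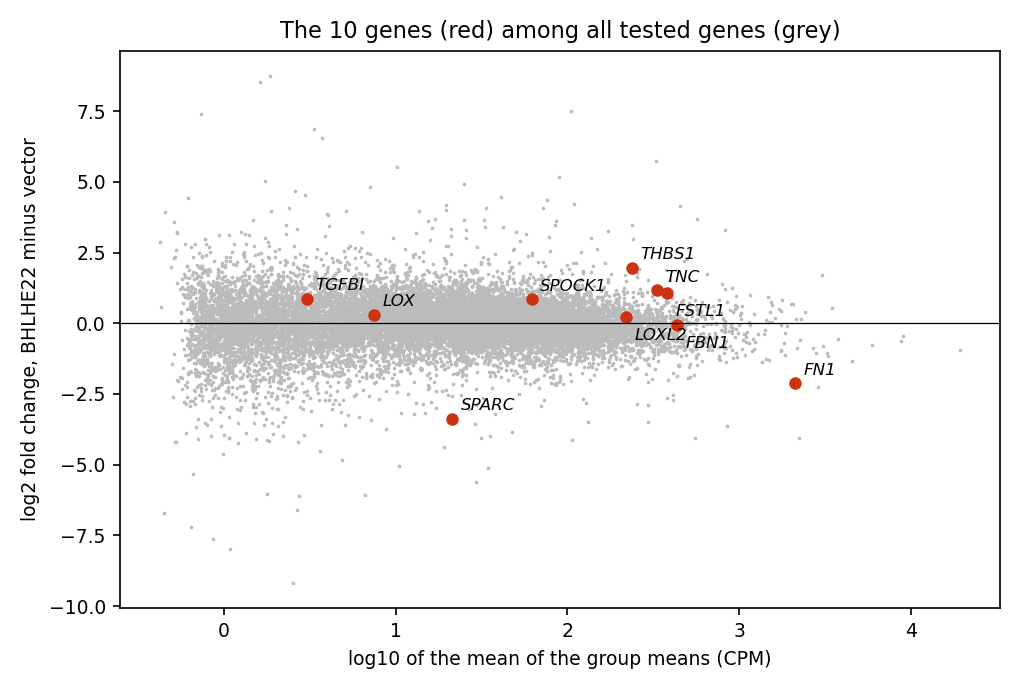
Log2 fold change (BHLHE22 minus vector) against the log10 mean level (CPM) for 15945 tested genes (grey), with the 10 genes in red. FN1 is among the most abundant genes and lies well below the cloud at -2.12, SPARC lies below it at -3.37 at a middle level, and FBN1, LOXL2 and LOX lie near 0.

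Some reads could come from overlapping genes, since the use of strand in counting is not stated. LOX, on the minus strand, shares 2.49% of its annotated exonic bases with SRFBP1 on the plus strand, which rose from 7.71 ± 0.34 to 13 ± 1.9 CPM. LOXL2 shares 2.1% of its exonic bases with ENTPD4, which is on the same strand and fell from 101 ± 9 to 52.6 ± 2.8 CPM. The other overlapping genes, which touch SPARC, THBS1, FBN1, FSTL1 and LOXL2, had 0 to 73 counts over all 6 libraries. Their part in the values of the 10 genes was not tested.

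Neighbouring tested genes within 500 kb were compared for the 3 largest changes. Around SPARC, 2 of 7 neighbours rose and 0 fell, with a median log2 fold change of 0.10 and a lowest value of -1.13, against -3.37 for SPARC. The 1 tested neighbour of FN1 rose (0.61, against -2.12). Around THBS1, 2 of 9 rose and 4 fell, with a median of -0.76 and a highest value of 0.67, against 1.96 for THBS1.

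Levels of different genes can be compared only per length, for which the authors' deposited FPKM (fragments per kilobase of gene length, scaled to the library total) was used. In vector cells FN1 led with 106 ± 7 FPKM (SD, n = 3), followed by FBN1 (22.2 ± 0.9), FSTL1 (21.3 ± 2.0) and LOXL2 (19.8 ± 2.6), whose libraries overlapped each other. TNC (12.5 ± 0.6), THBS1 (7.87 ± 0.52), SPARC (5.06 ± 0.97), SPOCK1 (3.77 ± 0.28), LOX (0.67 ± 0.05) and TGFBI (0.14 ± 0.04) came below, each apart from its neighbours in that order. In BHLHE22 cells FSTL1 led with 49.3 ± 0.7 FPKM. THBS1 (33.9 ± 3.9) and TNC (31.2 ± 0.7) came next and overlapped, and then FN1 (27.1 ± 2.5), which overlapped LOXL2 (25.7 ± 1.0), which overlapped FBN1 (23.4 ± 2.9). SPOCK1 (7.52 ± 0.54), LOX (0.92 ± 0.15), SPARC (0.54 ± 0.14) and TGFBI (0.27 ± 0.08) were apart. SPARC thus moved from above SPOCK1 and LOX to below both. The order rests on the lengths of the deposited FPKM: with the principal transcript lengths described below, FN1 led in BHLHE22 cells as well. With those lengths TGFBI (1.48 ± 0.45) overlapped both LOX (1.70 ± 0.28) and SPARC (1.07 ± 0.27) in BHLHE22 cells. SPARC then had the lowest mean.

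The share of FN1 in the summed FPKM of the 10 genes fell from 55.4%, 53.0% and 51.3% in vector replicates 1 to 3 to 14.8%, 13.4% and 12.5% in the BHLHE22 replicates. FSTL1 went from 10.7% ± 1.3 to 24.7% ± 0.4 (SD, n = 3), THBS1 from 3.94% ± 0.22 to 17% ± 2.0, and TNC from 6.28% ± 0.47 to 15.6% ± 0.5. The summed FPKM was 200 ± 5 in vector and 200 ± 4 in BHLHE22 cells. These shares and sums depend on the gene lengths used. The lengths implied by the deposited FPKM were 1.51 to 5.36 times those of the principal GENCODE transcripts, and for FN1 30720 against 7898 bases. For all 10 genes they also exceeded the union of all annotated exons, which was 17315 bases for FN1. With the principal lengths, chosen after the data were seen, the share of FN1 was 68.8% in vector and 24.0% in BHLHE22 cells, FN1 stayed first in both groups, SPARC and SPOCK1 overlapped in vector cells, and the summed level per length fell from 601 ± 24 to 440 ± 11. The same turn in composition, a smaller share of FN1 and larger shares of FSTL1, THBS1 and TNC, was present with both lengths. It carries no test, since it follows from the fold changes above.

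**Figure D4:**
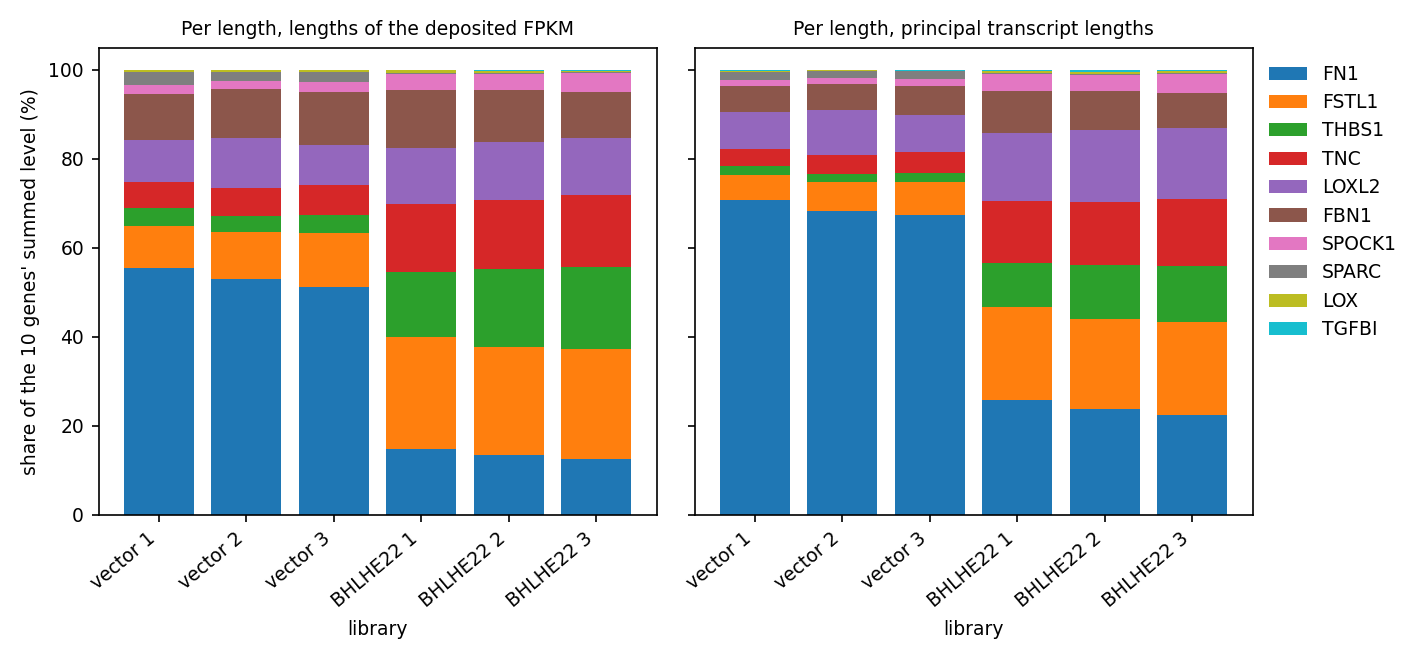
Share (%) of each gene in the summed level per length of the 10 genes, by library, with the lengths of the deposited FPKM (left) and with principal transcript lengths (right). FN1 makes up 51.3% to 55.4% of the vector libraries on the left and 12.5% to 14.8% of the BHLHE22 libraries, with larger shares of FSTL1, THBS1 and TNC.

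The genes whose pattern over the 6 libraries was most like those of SPARC and THBS1 were sought among 9684 other protein-coding genes with a mean of at least 10 CPM. Likeness was the root mean square difference of centred log2 CPM, and the group difference dominates it. For SPARC these were ALDH3A1 (0.20), SCARA5 (0.32) and TSPEAR (0.33), with log2 fold changes of -3.20, -2.91 and -2.84. For THBS1 they were SAMHD1 (0.07), HELZ2 (0.11) and SLC43A3 (0.12), with log2 fold changes of 2.02, 1.93 and 1.84.

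Other matricellular genes were mostly near the detection limit: of 23 listed, 10 could be tested. Of these, 2 rose, 4 fell and 4 did not pass, with a median log2 fold change of -0.01. Only 2 falls were left with a filter of 1 CPM in 3 libraries, and 1 rise without vector replicate 2 or BHLHE22 replicate 2. FSTL4, named after its values were seen, fell by 0.85 on the log2 scale. Its call ended under 10 of the 12 other settings that tested it. CCN3 (NOV in the deposited table), a secreted protein that binds integrins, rose from 29.4 ± 3.0 to 46.5 ± 2.3 CPM. TNXB, the gene of tenascin-X, fell from 6.20 ± 0.49 to 0.94 ± 0.35 CPM, opposite to TNC, and can share reads with its near-identical pseudogene copy. CCN4 (WISP1), a WNT-induced gene, had 87 counts in the vector and 5 in the BHLHE22 libraries, all 5 in replicate 3, and its fitted log2 fold change of -4.07 became -7.83 without that library. SPOCK2, a relative of SPOCK1, fell from 1.24 ± 0.40 to 0.36 ± 0.20 CPM. The YAP target genes CCN1 and CCN2, named after their values were seen, had log2 fold changes of 0.12 and -0.14 and did not pass; CCN1 passed without BHLHE22 replicate 3 (0.30), and CCN2 was at 0.003 with unscaled library sizes. SPARCL1, THBS2 and POSTN, close relatives of SPARC, THBS1 and TGFBI, had at most 3 counts over all 6 libraries and were also named after the fact.

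The list of fibrillin, fibulin, latent TGF-beta binding protein and related genes was lower on balance. Falls numbered 8 and rises 2 among 15 tested, and the median log2 fold change was -0.36. Of all tested genes, 24.3% fell and 25.1% rose. With unscaled library sizes 6 falls were left. The fibrillin gene FBN2, named after its values were seen, was at -0.14 on the log2 scale and was not called. It was at 0.004 with unscaled library sizes. LTBP2 and LTBP3, which encode latent TGF-beta binding proteins, fell: the first had 43.2 ± 0.7 CPM in vector and 27.4 ± 1.5 in BHLHE22 cells, the second 189 ± 31 and 105 ± 14. HMCN1, a giant fibulin-family gene, fell from 38.3 ± 4.9 to 20.6 ± 1.0 CPM, and FBLN2, the fibulin-2 gene, from 2.45 ± 0.23 to 0.80 ± 0.14 CPM. LTBP1 and LTBP4, named after their values were seen, fell by 0.36 and 0.51 on the log2 scale. Also named after the fact are the 2 rises, EFEMP1 (1.28) and NID2 (0.51), and the fall of FBLN1 (-0.31). The call of FBLN1 ended under 9 of 13 other settings. With unscaled library sizes LTBP1 was at -0.21 (edgeR adjusted p = 0.0536).

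Crosslinking and collagen-modifying enzymes were divided: among 17 tested there were 6 rises and 4 falls, and the median was 0.05. TGM2, a transglutaminase that crosslinks fibronectin among other proteins, rose from 183 ± 19 to 398 ± 32 CPM. The lysyl hydroxylase genes PLOD2 and PLOD1, which prepare collagen for crosslinking, rose, with 85.3 ± 8.8 against 186 ± 20 CPM and 320 ± 3 against 491 ± 12 CPM. LOXL4, a relative of LOX and LOXL2, fell from 49.2 ± 10.6 to 21.1 ± 4.1 CPM.

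Receptors that bind these proteins also split. Among 15 tested there were 5 rises and 6 falls, and the median was -0.02. ITGAV, the integrin alpha-v subunit that binds fibronectin, fell from 198 ± 19 to 83.3 ± 3.9 CPM, and its partner subunit gene ITGB8 from 62.9 ± 5.3 to 30.8 ± 1.7 CPM. LRP1, an endocytic receptor for thrombospondin-1, fell from 867 ± 77 to 452 ± 41 CPM. SDC4, a syndecan that binds fibronectin together with integrins, rose from 162 ± 14 to 263 ± 8 CPM. The following were named after their values were seen. ITGB3 and ITGB5, further partners of ITGAV, fell by 1.62 and 0.67 on the log2 scale, and CD47, a thrombospondin-1 receptor gene, rose by 0.94. Of the subunits of the classical fibronectin receptor, ITGA5 was at -0.02 (not called; 0.13 with unscaled library sizes), and ITGB1 rose by 0.39, a call that ended without vector replicate 1 or BHLHE22 replicate 2.

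In the TGF-beta list there were 3 rises and 6 falls among 18 tested genes, and the median was -0.37. LTBP1 is on this list too and is counted as a fall in both. With unscaled library sizes 4 falls were left. TGFB3, a ligand gene, rose from 8.74 ± 1.11 to 17.5 ± 0.8 CPM, and the receptor gene TGFBR2 from 105 ± 17 to 200 ± 12 CPM. The co-receptor gene TGFBR3 fell from 46.8 ± 6.4 to 20.5 ± 3.8 CPM. TGFB1, the main ligand gene, named after its values were seen, had 184 ± 37 and 142 ± 15 CPM and did not pass (-0.38 on the log2 scale; edgeR adjusted p = 0.0779), though it passed without vector replicate 3 (-0.53). In these 5 lists the called shares were 50% to 73.3%, beside the background of 49.4% (25.1% higher and 24.3% lower).

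**Figure D5:**
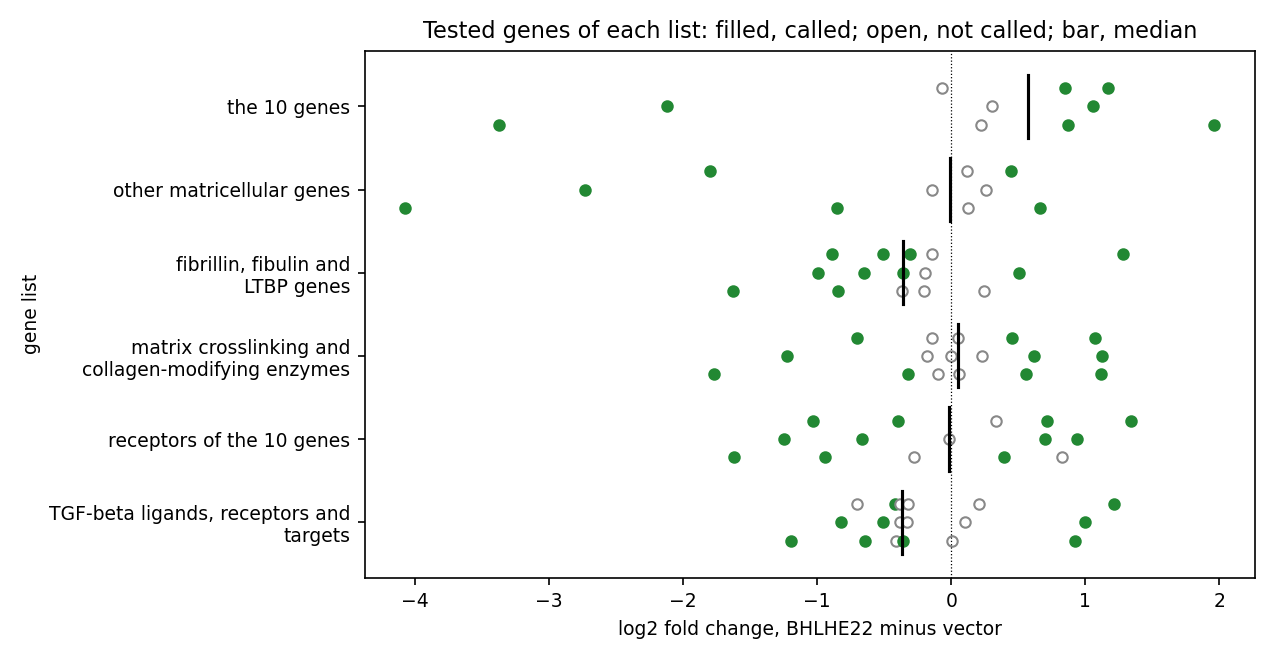
Log2 fold changes (BHLHE22 minus vector) of the tested genes of each list, 1 point a gene; filled green points were called by edgeR, open grey points were not, and black bars are medians. The fibrillin, fibulin and LTBP genes and the TGF-beta genes have medians of -0.36 and -0.37, and every list holds genes called in both directions.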

How the data were processed

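Deposited whole-number read counts per gene, 1 column per library, were the input; the authors' deposited FPKM columns were used only for levels per length. Per the submitters' processing notes, the tools were HISAT2 2.1.0, StringTie 1.3.4b, CASAVA 1.8 and edgeR, on build GRCh38 (hg38); no source used here gives their roles or the counting options. Columns headed control were taken as vector libraries. Positions of all 10 genes were identical to GENCODE release 29.

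Genes kept by filterByExpr were tested with edgeR 4.0.16 (R 4.3.3; TMM, quasi-likelihood, robust, group as the only term, 2-sided, Benjamini-Hochberg over all tested genes). CPM used TMM-scaled library sizes. The SE is the log2 fold change divided by the square root of F. Other settings used DESeq2 1.42.0 and limma 3.58.1, other scalings and filters, a replicate block and each library left out. Counts were simulated with 100 genes changed 1.5-fold and 100 changed 3-fold, and 15685 genes were tested. There edgeR called 30.0% of 1.5-fold and 90.0% of 3-fold changes, and 9.77% of calls were false. In the data 49.4% of tested genes were called, so these shares do not carry over to them.

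The 10 genes and the 5 lists were chosen with earlier results of these data known. Named genes are the 10, the up to 4 called genes with the smallest p in each list, genes most alike SPARC and THBS1, overlapping genes and markers; others are said to be named after their values were seen. Values of some genes of these lists are not reported here.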

Additional observations from a re-analysis of the deposited data

How the results depend on the processing

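SPARC, FN1, THBS1, TNC, FSTL1 and SPOCK1 kept their direction and their call under all 13 other settings, and LOX kept its direction and stayed uncalled. The 10 genes' counts of rises and falls stayed within 1.5 times of 5 and 2. The call of TGFBI (0.87) ended with the replicate block (0.86), with DESeq2 (0.87) and without any of 4 libraries (0.63 to 1.10 over the 6 left out in turn); LOXL2 was called with unscaled library sizes (0.37) and without vector replicate 2 (0.14 to 0.36 over the libraries left out). FBN1 turned to 0.075 with unscaled library sizes and to 0.030 without BHLHE22 replicate 3 (-0.14 to 0.030 over the libraries left out). The causes were not tested. Unscaled sizes moved the median of all genes to 0.15 on the log2 scale and the higher share of calls from 50.7% to 64.0%.

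With an adjusted p under 0.01, 2480 genes were higher and 2482 lower, against 3996 and 3880. Among the other matricellular genes that threshold left 1 rise and 2 falls, and a filter of 1 CPM in 3 libraries left 2 falls. Leaving out single libraries gave 1 to 3 rises and 3 falls. No pairing of libraries by replicate number was seen in the values. Deviations of same-numbered libraries correlated at 0.01, -0.03 and 0.01, and not every library correlated best with its own number. These correlations cannot tell whether libraries were cultured or prepared in pairs. With the replicate block, 3688 genes were higher and 3604 lower, and 4 of the 10 genes were higher and 2 lower. With TMM-scaled levels per length, TNC was at 13.2 and 29.7, FSTL1 at 46.9 and LOXL2 at 24.5 in BHLHE22 cells, and FBN1 at 23.4 in vector cells. TGFBI had 23 to 73 counts per library.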
